A study of Homo sapiens with 20 samples.

Results

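The 8 genes described here are ZEB1, ZEB2, SNAI1, SNAI2, TWIST1, VIM, CDH1 and CDH2, and their members in the data are the H3K4me3 peaks that lie within 5 kb of the start site of each gene. Across 10 peak lists 136 of 306884 deposited peaks met this rule, between 10 and 18 per library. The rule uses positions alone and no measured height or width.

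Epithelial-mesenchymal transition is a reversible change in which cells give up E-cadherin junctions and take on a motile form with a vimentin cytoskeleton and N-cadherin. ZEB1, ZEB2, SNAI1, SNAI2 and TWIST1 encode DNA-binding factors that bind E-box motifs and repress CDH1, the E-cadherin gene. In the melanocyte lineage the factors are known to divide into 2 states, with ZEB2 and SNAI2 in differentiated cells and ZEB1 and TWIST1 in less differentiated, invasive melanoma cells. The histone mark H3K4me3 is found at the start sites of active genes, and wide H3K4me3 domains are known to mark genes of cell identity.

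WM164 is an established human melanoma line with a mutant BRAF kinase, and every group studied here is a derivative of it. Dabrafenib inhibits that kinase. Parental cells received the solvent DMSO for 3 days. Colonies had been in 50 nM dabrafenib for 45 days while resistant cells had been in that dose for over 90 days. The remaining groups overexpressed GFP or NRAS Q61K, a constitutively active RAS protein, and each of the 5 groups had 2 libraries. Neither dabrafenib nor DMSO is recorded for the GFP and NRAS Q61K groups. The promoter that drives the transgenes, the number of clones behind each group and whether replicates were separate cultures are not stated in the labels, so the p-values reflect the spread of these libraries alone, which may be technical. The lists name no genes, so the melanoma label was not checked against melanocyte markers. Lists held 19111 to 45376 peaks on the autosomes and X, and the shortest peak ran from 180 to 202 bp in the parental lists and from 142 to 153 bp in the transgene lists. It was longer under drug, at 282 to 284 bp in colony and 255 to 256 bp in resistant lists. Read depth is not recorded in the lists.

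Every library had H3K4me3 peaks at the mesenchymal genes and none within 10 kb of the CDH1 start site. Each of ZEB1, ZEB2, SNAI1, SNAI2, TWIST1, VIM and CDH2 had a peak within 5 kb in 10 of 10 libraries, and this held with windows of 2 kb and 10 kb and when weaker peaks (−log10 q under 10) were dropped. Peaks from any library no more than 1000 bp apart were joined into regions, and 38.5% of the 31428 regions had a peak in all 10 libraries. In each of the 7 marked genes 1 region held the start site, and it is called the promoter region below. The covered length, the number of bases of that region under peaks in a library, is the quantity compared.

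**Figure D1:**
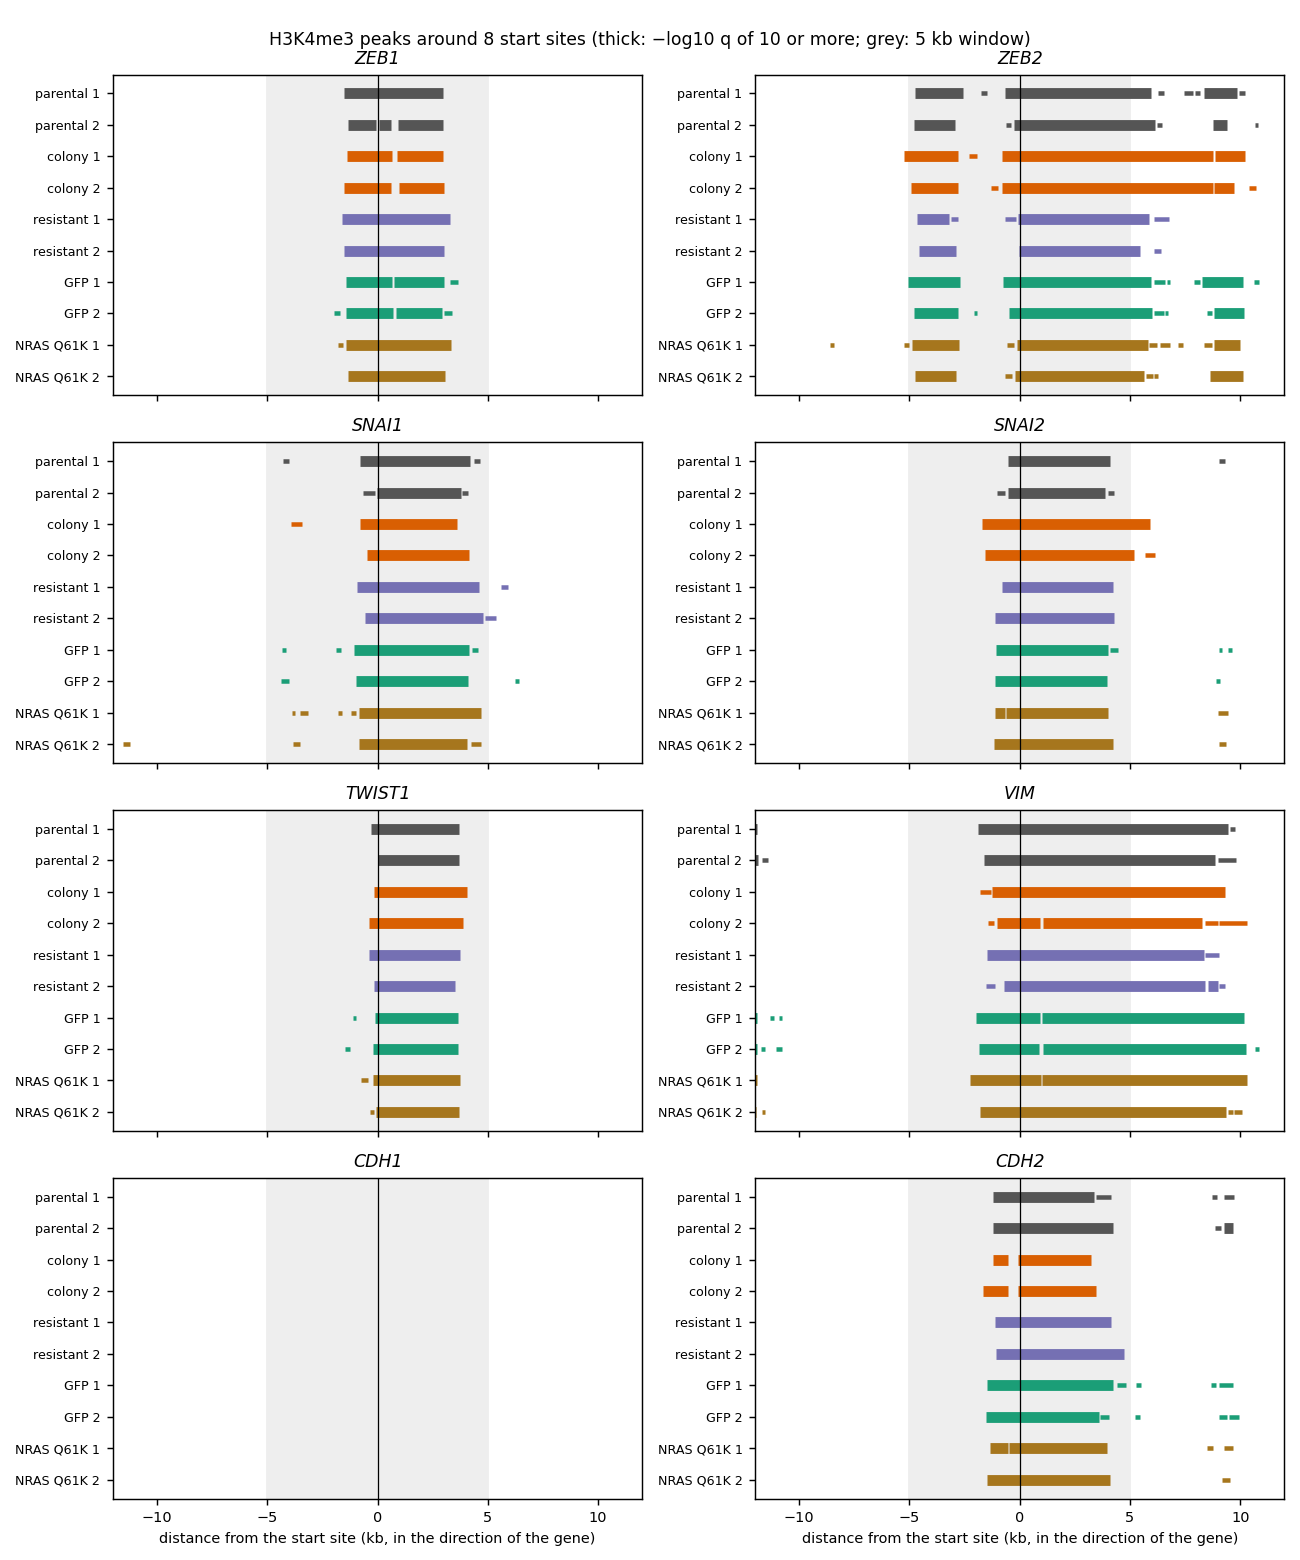
H3K4me3 peaks of the 10 libraries (rows, coloured by group) around the start sites of the 8 genes. The x axis is the distance from the start site in kb, with the gene body to the right, thick bars are peaks with −log10 q of 10 or more, thin bars are weaker peaks and the grey band is the 5 kb window. CDH1 has no peak in any row. At ZEB2 the peak over the start site runs to 8753 and 8752 bp in the colony rows, and at SNAI2 the colony bars are the longest.

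CDH1 encodes E-cadherin, the adhesion molecule of epithelial junctions. Its start site lies at position 68771195 of chromosome 16 (GRCh37, as are all peak positions here), and no library had a peak within 10 kb of it. The nearest peak edge lay downstream of the start site, 105.6 to 106.0 kb away in 9 libraries. In NRAS Q61K 1 it was a peak of 193 bp with −log10 q 2.40 at 50.3 kb. RefSeq lists CDH3, the P-cadherin gene, as the neighbour of this start. A missing peak says that no signal passed the authors' peak threshold, not that the mark was absent.

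In bases under peaks, ZEB2 had its widest mark in colonies and its narrowest in resistant cells. It encodes a zinc-finger repressor of CDH1 that also acts in the melanocyte lineage. Its promoter region (chromosome 2, 145267105 to 145283226) held the start site at 145277958, and the gene runs on the minus strand. Parental libraries had 11637 and 9499 bp under peaks, colony libraries 13754 and 13261 bp, and resistant libraries 8931 and 7500 bp. GFP libraries had 12018 and 10787 bp and NRAS Q61K libraries 11228 and 9933 bp. In bases, both colony libraries thus lay above the other 8, and both resistant libraries lay below them. The resistant part did not hold on the log2 scale after centring each library on its own median and the gene on its mean. There resistant 1 (-0.07) lay above parental 2 (-0.10), GFP 2 (-0.09) and NRAS Q61K 2 (-0.13).

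The mark at ZEB2 was longest in colonies on both sides of the start site, and the sides were not tested separately. Positions below are bases from the start site, negative upstream. The peak over the start site ended at 8753 in colony 1 and 8752 in colony 2, against 5933 and 6149 in parental cells and 5872 and 5475 in resistant cells. The transgene libraries ended between 5631 and 5975. A further block of peaks with −log10 q of 10 or more, with summits between 9035 and 9298, was present in all 8 libraries outside the resistant group. In resistant 1 and 2 the last peak of the region ended at 6759 and 6422, so that block had no peak. Upstream, a separate block, from -4737 to -2589 in parental 1, carried a peak in all 10 libraries. The upstream length was 3647 and 3245 bp in colony, 2379 and 1681 bp in resistant and 3093 and 2338 bp in parental libraries. It was 3139 and 2640 bp in GFP and 2822 and 2384 bp in NRAS Q61K libraries. Upstream, the resistant and parental values thus overlapped. RefSeq lists 3 neighbours of the ZEB2 start, LINC01412, LINC02993 and ZEB2-AS1, the last an antisense transcript. H3K4me3 has no strand, so the mark of ZEB2 and that of these neighbours cannot be told apart.

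SNAI2 was the other factor with a wider mark in colonies. SNAI2, also called SLUG, is a zinc-finger factor needed by neural crest cells and melanocytes. Its promoter region lay on chromosome 8 from 49827877 to 49835719, with the start site at 49833999 and the gene on the minus strand. Covered length was 4638 and 5051 bp in parental, 7606 and 7203 bp in colony and 5007 and 5374 bp in resistant libraries. It was 5442 and 5084 bp in GFP and 5108 and 5409 bp in NRAS Q61K libraries. The 8 libraries outside the colony group therefore lay between 4638 and 5442 bp, and both colony libraries lay above that range. The mark was longer on both sides of the start: 1720 and 1576 bp upstream and 5886 and 5627 bp downstream in colonies, against 529 and 933 bp and 4109 and 4118 bp in parental cells.

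ZEB1 and SNAI1 showed the opposite order, with the resistant cells above the colonies. ZEB1 is the zinc-finger repressor linked to invasive melanoma states. At ZEB1 (chromosome 10, 31606130 to 31611760, start site 31608101, plus strand) covered length was 4489 and 3894 bp in parental, 4106 and 4144 bp in colony and 4909 and 4528 bp in resistant libraries. GFP libraries had 4723 and 4809 bp and NRAS Q61K libraries 5027 and 4407 bp. Resistant values lay above both parental and both colony values and within the range of the transgene groups. The mark was made of 2 blocks on either side of about 0.7 kb downstream of the start. In both colony libraries they were called as separate peaks (ending at 644 and 595 and resuming at 863 and 956), and in both resistant libraries as 1 peak over the whole stretch. Both GFP libraries were split at the same place (ending at 636 and 692 and resuming at 759 and 825). Both NRAS Q61K libraries had 1 peak across it, so the split was not particular to colonies. In parental 1 the stretch was 1 peak and in parental 2 there were 3, with the start site itself between peaks. RefSeq lists ZEB1-AS1 as the neighbour of this start.

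SNAI1 encodes SNAIL, the founding member of the SNAIL family of CDH1 repressors. Its promoter region (chromosome 20, 48597643 to 48605912, start site 48599513, plus strand) had 5286 and 4615 bp under peaks in parental, 4381 and 4605 bp in colony and 5866 and 5835 bp in resistant libraries. GFP libraries had 5716 and 5213 bp and NRAS Q61K libraries 5917 and 5356 bp. Both colony libraries lay below all others, colony 2 (4605 bp) only just below parental 2 (4615 bp), and the resistant pair lay above both parental libraries. The parental 2 length included weaker peaks of 533 and 291 bp. Its peak over the start site (3791 bp) was shorter than those of the colony libraries (4381 and 4605 bp). The strongest summit was at 2226 and 2269 in the resistant libraries and between 296 and 586 in the other 8. A second, weak region upstream (48595148 to 48596377) had 193 to 554 bp under peaks in 6 libraries and none in parental 2, colony 2 or the resistant pair, and it passed the test in no comparison (lowest limma adjusted p = 0.555).

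TWIST1 encodes a basic helix-loop-helix factor of mesoderm and neural crest. Its promoter region (chromosome 7, 19153232 to 19158769, start site 19157295, minus strand) was the most even in bases of the factors, with 3689 to 4259 bp over all 10 libraries. Parental libraries had 4016 and 3693 bp, colony libraries 4231 and 4247 bp, and resistant libraries 4139 and 3689 bp. GFP libraries had 3933 and 4088 bp, and NRAS Q61K libraries 4259 and 3940 bp. The colony pair lay above the parental pair, and the resistant pair overlapped it. In parental 2 the peak began 20 bp past the start site. The mark was almost all downstream of the start, with 3527 to 4064 bp downstream and 0 to 539 bp upstream.

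VIM and CDH2 are the structural genes of the mesenchymal state, for the intermediate filament vimentin and for N-cadherin, which joins melanoma cells to fibroblasts and endothelium. VIM (chromosome 10, 17267986 to 17281120, start site 17270258, plus strand) had one of the longest covered lengths of every list. Parental libraries had 11553 and 11303 bp, colony libraries 11073 and 11328 bp, and resistant libraries 10405 and 10264 bp. GFP libraries had 12032 and 12104 bp and NRAS Q61K libraries 12507 and 11720 bp. It ranked between 51 and 61 by covered length among all regions of every list. In colony 2, GFP 1, GFP 2 and NRAS Q61K 1 the peak over the start site had only 1944, 2889, 2727 and 3245 bp. A separate, longer peak followed downstream. RefSeq lists VIM-AS1 as the neighbour of this start. The resistant pair lay below all other libraries in bases and both transgene groups lay above all others.

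CDH2 (chromosome 18, 25751928 to 25759107, start site 25757445, minus strand) had 5296 and 5461 bp in parental, 3977 and 4694 bp in colony and 5276 and 5780 bp in resistant libraries. GFP libraries had 6345 and 5726 bp and NRAS Q61K libraries 5243 and 5576 bp. Both colony libraries lay below the other 8. In each colony library the mark was called as 2 peaks, and the start site lay in the downstream one (3329 and 3545 bp). NRAS Q61K 1 had the same arrangement, with 4458 bp over the start site and 785 bp upstream. Parental 1 also had 2 peaks, the smaller one downstream, and both GFP libraries had 3. The strongest CDH2 peak ranked at 18.2% to 48.2% from the top of its list by −log10 q, and that of SNAI2 at 0.107% to 8.90%. These ranks place a peak within its own list and show no change between lists of different lengths.

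**Figure D2:**
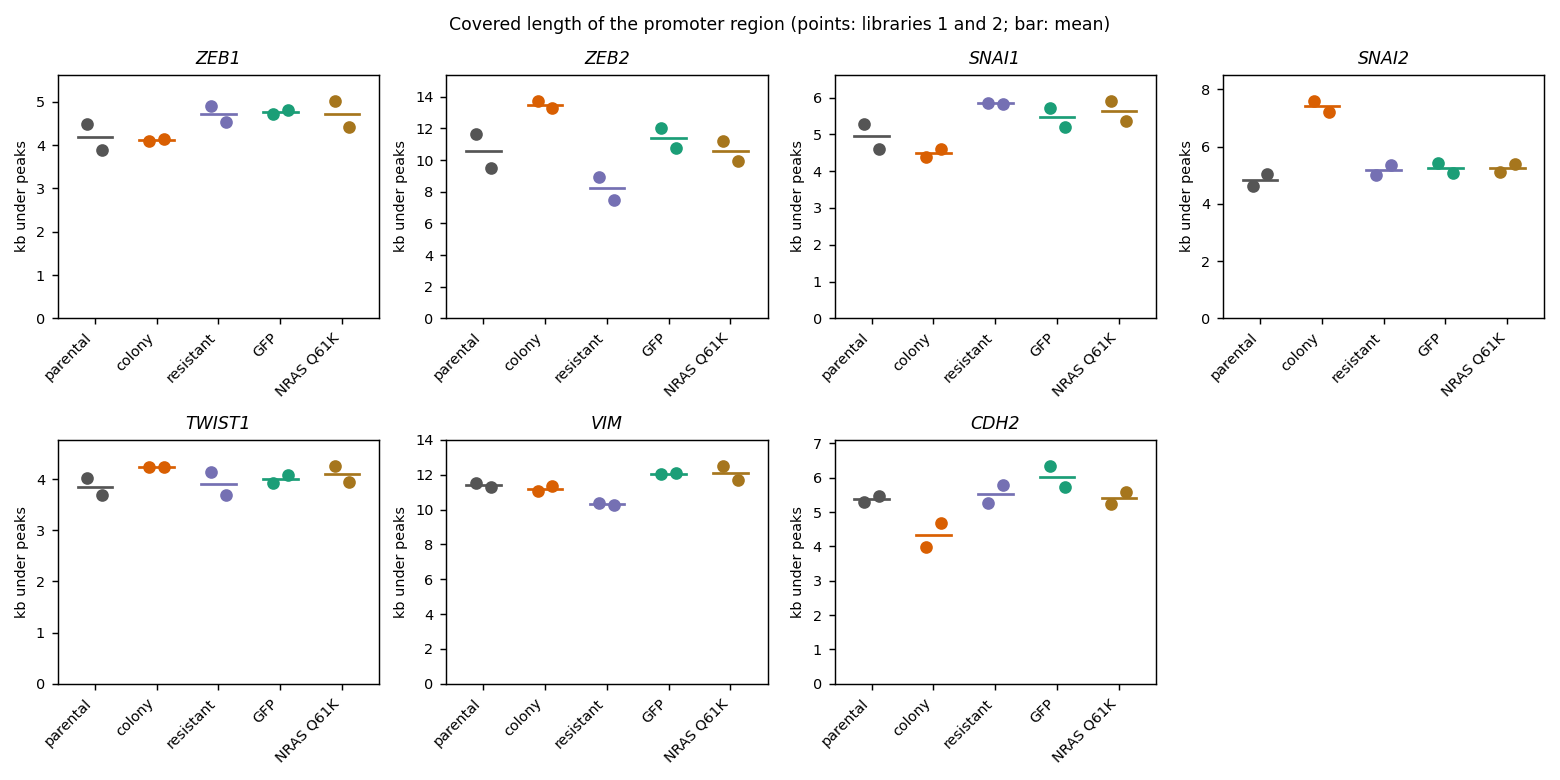
Covered length of the promoter region of the 7 marked genes, in kb under peaks (y axis, from 0) by group (x axis); points are the 2 libraries and bars their mean. The colony points of ZEB2 and SNAI2 lie above all others, and those of SNAI1 and CDH2 lie below all others. At SNAI1 the points of colony 2 and parental 2 nearly coincide.

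The promoter sequences of 4 of the 8 genes, with 11 start sites, were found in RefSeq (GRCh38.p14), and the 250 bases before a start are printed for the 3 of them with a called change in covered length below (ZEB1, ZEB2 and CDH2). They are shown because the zinc-finger factors above (ZEB1, ZEB2, SNAI1 and SNAI2) bind the E-box CACCTG, or CAGGTG on the other strand, which is in capitals. The 2 words are reverse complements of each other and do not overlap. Of 35116 promoters of that length 17.5% held at least 1. Of the 7 ZEB1 starts, 2 had the motif. The third start, the one printed, was the only one with 2 motifs, at -242 and -85. The first start, not printed, had 1 at -57, and the other ZEB1 starts had none. ZEB2, CDH2 and VIM had none at any listed start. These positions belong to GRCh38 and were not converted, so whether a given peak ends inside these bases was not tested.
ZEB1, chr10:31318966-31319215, plus strand: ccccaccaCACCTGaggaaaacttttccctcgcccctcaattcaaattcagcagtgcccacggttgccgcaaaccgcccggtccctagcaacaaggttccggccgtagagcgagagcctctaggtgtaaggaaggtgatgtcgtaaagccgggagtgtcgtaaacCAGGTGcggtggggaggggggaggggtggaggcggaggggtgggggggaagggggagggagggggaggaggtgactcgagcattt
ZEB2, chr2:144520120-144520369, minus strand: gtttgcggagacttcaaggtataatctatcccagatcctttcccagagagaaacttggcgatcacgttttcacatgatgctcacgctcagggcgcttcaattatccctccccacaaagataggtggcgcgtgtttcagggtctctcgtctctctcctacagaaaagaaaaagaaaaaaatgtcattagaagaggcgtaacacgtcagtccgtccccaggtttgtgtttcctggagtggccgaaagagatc
CDH2, chr18:28177131-28177380, minus strand: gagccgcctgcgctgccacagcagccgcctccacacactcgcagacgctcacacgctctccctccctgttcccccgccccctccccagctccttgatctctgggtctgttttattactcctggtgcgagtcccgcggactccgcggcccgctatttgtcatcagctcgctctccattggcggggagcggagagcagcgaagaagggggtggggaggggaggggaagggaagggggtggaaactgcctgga
These stretches hold 14, 12 and 17 CG dinucleotides, against a median of 11 over all the promoters.

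In colonies against parental cells, 2 of the 7 tested genes had a wider mark and none a narrower one, while 4.29% of the 23153 regions tested were called wider and 16.7% narrower. All 7 genes are among the 12087 regions with a peak in all 10 libraries, and of those 5.77% were called wider and 9.33% narrower. The test was limma on log2(bases under peaks + 200), after subtracting from each library its own median, taken over regions that every library covered. The median log2 change was -0.04 over the 7 genes and -0.05 over all regions. SNAI2 rose by a log2 change of 0.57 (SE 0.09, adjusted p = 3.87e-03), from 4845 ± 292 to 7405 ± 285 bp (SD, n = 2 in each group throughout). ZEB2 rose by 0.33 (SE 0.09, adjusted p = 0.0311), from 10568 ± 1512 to 13508 ± 349 bp. CDH2 had a change of -0.33 (adjusted p = 0.0514) and SNAI1 one of -0.16 (adjusted p = 0.0741), so neither passed the threshold of 0.05, and both had an unadjusted p below it (0.0109 and 0.0176). CDH2 passed in 3 of 15 alternatives, among them without colony 2 (-0.43, adjusted p = 0.0388). With only peaks at −log10 q of 10 and above, SNAI1 had 0.01 (adjusted p = 0.987). ZEB1 (-0.04), VIM (-0.05) and TWIST1 (0.11) had adjusted p-values of 0.273 or more. The shortest peak was also longer in the colony lists. With each peak shortened by the shortest of its list, an alternative chosen after seeing the data, SNAI2 changed by 0.65 (adjusted p = 1.75e-03) and ZEB2 by 0.44 (adjusted p = 4.01e-03). The ZEB2 call was lost in 6 of 15 alternatives (adjusted p up to 0.156), among them each fit without parental 2, colony 1 or colony 2, while SNAI2 passed in all 15.

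In resistant against parental cells, 3 of 7 genes had a wider mark relative to the other regions of the same library and none a narrower one, against 7.93% and 20.6% of all regions tested and 9.46% and 12.4% of those marked in all 10 libraries. The median log2 change was 0.23 over the 7 genes and -0.07 over all regions. SNAI1 rose by 0.43 (SE 0.05, adjusted p = 5.98e-04), ZEB1 by 0.36 (SE 0.06, adjusted p = 2.29e-03) and TWIST1 by 0.22 (SE 0.06, adjusted p = 0.0258). SNAI2 had 0.29 (adjusted p = 0.0507) and passed in 5 of 15 alternatives (adjusted p = 0.0171 to 0.0437), among them without parental 2 (0.41, adjusted p = 0.0234). CDH2 had 0.23 (adjusted p = 0.126), VIM 0.05 (adjusted p = 0.384) and ZEB2 -0.16 (adjusted p = 0.247). The medians that centring subtracted were -0.19 and -0.22 on the log2 scale in the resistant libraries, and without centring 3.81% of all regions were called wider and 31.4% narrower. Without centring the log2 changes of SNAI1 (0.24, adjusted p = 0.0596), ZEB1 (0.17, adjusted p = 0.191) and TWIST1 (0.02, adjusted p = 0.948) no longer passed, and VIM was called narrower (-0.14, adjusted p = 0.0256). In bases, SNAI1 went from 4951 ± 474 to 5851 ± 21.9, ZEB1 from 4192 ± 421 to 4719 ± 269 and TWIST1 from 3855 ± 228 to 3914 ± 318, the last a difference smaller than either SD. Covered length is a width, not a height. The mean fold of the strongest peak was 9.90 in resistant and 13.1 in parental libraries at ZEB1. It was 13.2 and 17.2 at TWIST1, and 16.0 in both groups at SNAI1. Fold was not tested. TWIST1 lost its call in 7 of 15 alternatives, including without parental 1 (adjusted p = 0.0900), parental 2 (0.0797) or resistant 1 (0.151).

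Set directly against each other, the 2 drug-exposed groups differed at 4 of 7 genes. Resistant cells had a wider mark than colonies at SNAI1 (0.59, SE 0.05, adjusted p = 1.19e-04), CDH2 (0.56, SE 0.10, adjusted p = 4.48e-03) and ZEB1 (0.41, SE 0.06, adjusted p = 1.39e-03), and a narrower one at ZEB2 (-0.49, SE 0.09, adjusted p = 4.86e-03). Over all regions 11.0% were called wider and 11.5% narrower, or 6.13% and 22.9% without centring, and of those marked in all 10 libraries 13.1% and 12.6%. The median log2 change was 0.11 over the 7 genes and 0.17 over all regions. SNAI2 (-0.27, adjusted p = 0.0771), TWIST1 (0.11, adjusted p = 0.261) and VIM (0.11, adjusted p = 0.0875) did not pass, and without centring TWIST1 and VIM had the opposite sign (-0.11 in each) and SNAI2 passed (-0.50, adjusted p = 1.42e-03). In bases the 4 differences were 4493 ± 158 against 5851 ± 21.9 at SNAI1, 4336 ± 507 against 5528 ± 356 at CDH2, 4125 ± 26.9 against 4719 ± 269 at ZEB1 and 13508 ± 349 against 8216 ± 1012 at ZEB2. The calls of SNAI1, CDH2 and ZEB2 were kept in all 15 alternatives, and that of ZEB1 was lost without centring (0.18, adjusted p = 0.170). Whether the resistant cells arose from such colonies is not stated in the labels.

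**Figure D3:**
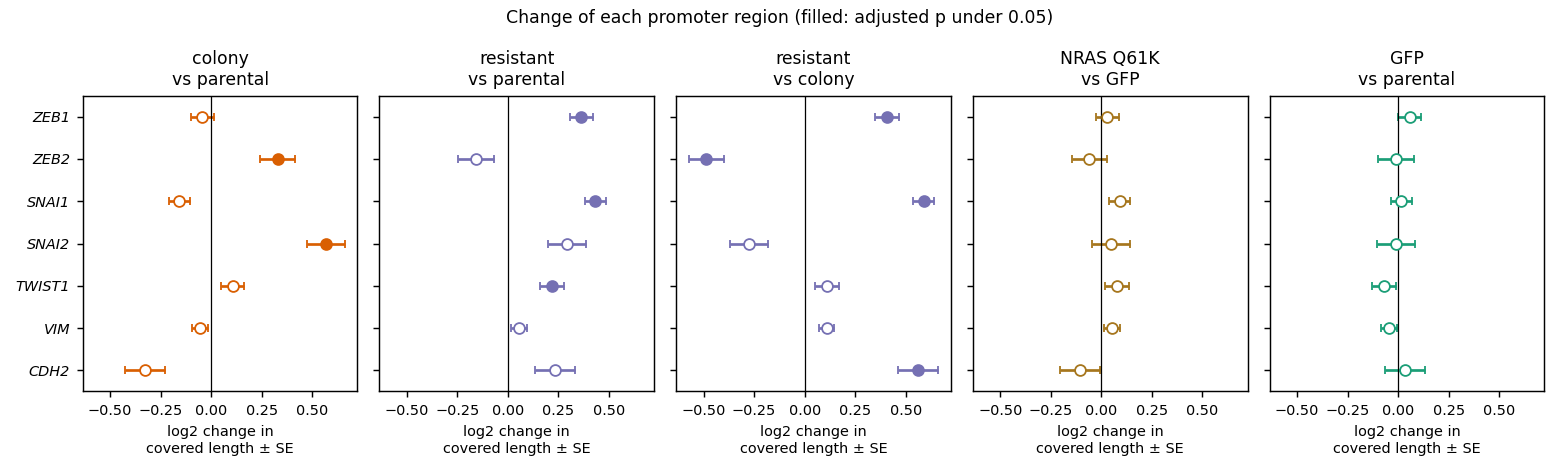
Log2 change in covered length of each promoter region (x axis) with its standard error, for the 5 comparisons (panels) and 7 genes (rows), from limma with centring; filled points have an adjusted p under 0.05. ZEB2 and SNAI2 are filled to the right in colonies, SNAI1, ZEB1 and TWIST1 in resistant cells, and no point is filled in the transgene panels.

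No gene passed the threshold in either transgene comparison. For NRAS Q61K against GFP limma called 0 of 7 wider and 0 narrower, with none at an unadjusted p under 0.05, where 5.06% of all regions were called wider and 2.18% narrower, and 2.04% and 0.381% of those marked in all 10 libraries. Log2 changes ran from -0.10 (CDH2, SE 0.10) to 0.09 (SNAI1, SE 0.05), the lowest adjusted p was 0.453, and the median was 0.05 over the 7 genes and over all regions. For GFP against parental cells limma likewise called 0 of 7 in either direction, with none at an unadjusted p under 0.05, against 2.67% and 1.69% of all regions (4.23% and 1.11% without centring) and 0.281% and 1.05% of those marked in all 10 libraries. Those changes ran from -0.07 (TWIST1, SE 0.06) to 0.06 (ZEB1, SE 0.06), with a median of -0.01 against -0.03 over all regions. Without centring they ran from 0.06 to 0.18, and none passed. The 2 libraries a group leave small changes undetectable, and parental cells were the control of 3 of the 5 comparisons.

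The likeness of the genes over the 10 libraries is described here with no test. The most alike pair was ZEB1 and SNAI1, with Pearson r = 0.947 between their centred log2 covered lengths over 10 libraries. The least alike pair was ZEB2 and CDH2, with r = -0.876. ZEB2 also had negative values with VIM (-0.762), SNAI1 (-0.721) and ZEB1 (-0.590), and a positive one with SNAI2 (0.496). The 10 points come from 5 groups and are not independent. The centred value of ZEB2 was 0.35 and 0.27 in the colony pair and -0.07 and -0.28 in the resistant pair, while that of SNAI1 was -0.25 and -0.22 and then 0.34 and 0.36.

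**Figure D4:**
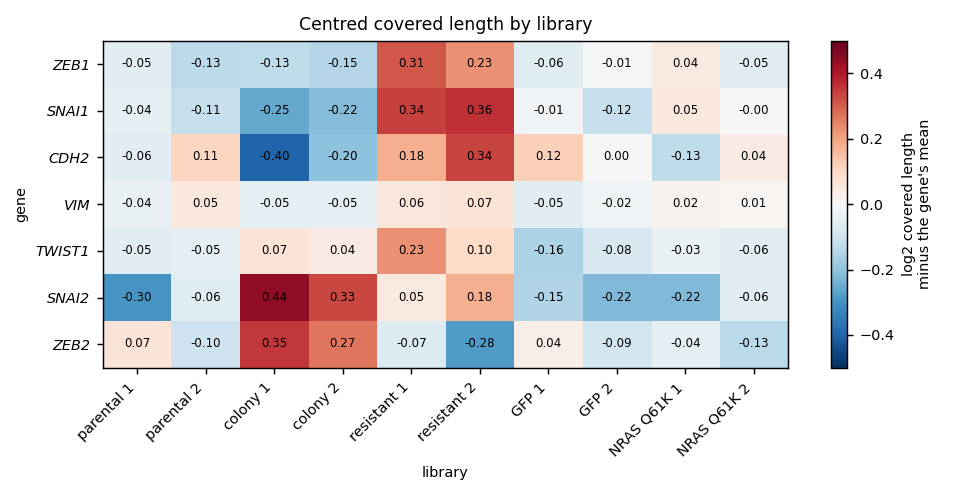
Log2 covered length of 7 genes (rows) in 10 libraries (columns), centred by library and then on each gene's mean; red is wider and blue narrower than that mean. ZEB1, SNAI1 and CDH2 are red in the resistant columns and blue in the colony columns, and ZEB2 and SNAI2 are red in the colony columns. In the resistant columns SNAI2 is also above its mean (0.05 and 0.18), while ZEB2 is below its mean (-0.07 and -0.28).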

How the data were processed

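H3K4me3 peak lists of 10 libraries were analysed; the 10 input samples were not used here. The authors deposited 1 list per library, and the tools listed in the submitters' processing notes are MACS2 2.1.2, deepTools 2.5.4, BWA and SAMtools, with the builds GRCh37 and hg19. Deposited values are a score (10 times the −log10 q-value as a whole number, except for 13 peaks), a fold (the authors' ratio of summit over local background), and the −log10 p-value and −log10 q-value of the summit. They were used to rank or filter peaks within a list, and the fold is also given for SNAI1, ZEB1 and TWIST1. The lists give no read counts, so depth is unknown.

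Start sites were those of the rule, in GRCh37; the strands of SNAI1, SNAI2, TWIST1 and CDH1, which set upstream from downstream, are textbook knowledge. Genes of the planned epithelial, mesenchymal and melanocyte lists that do not adjoin a member were not analysed here, because the annotation at hand is of another build. Peaks on the 22 autosomes and X were merged when within 1000 bp. Regions marked in 2 or more libraries were tested with limma 3.58.1 (R 4.3.3) on log2(covered bases + 200), centred per library, in 1 fit of 5 group means, with a trend and Benjamini-Hochberg adjustment over all regions; the code was tested on simulated data. Groups and replicate numbers came from the titles. With 2 against 2 libraries an exact two-sided permutation test cannot go below p = 0.333. All 8 genes are named, and likeness was computed between the promoter regions of the 7 with a peak. The members and lists were chosen with earlier results of these data known. Alternatives were a stricter peak threshold, lists of equal length, merging of overlapping peaks only, pseudocounts of 50 and 1000 bp, no centring, no filter, a replicate block, no trend, fits of 4 libraries, leaving out each library and, added after seeing the data, shortened peaks. Tables and plots were made in Python 3.11.15 with pandas 2.3.3, matplotlib 3.10.9 and numpy 2.4.6.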

Additional observations from a re-analysis of the deposited data

Results flagged for a closer look

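The effects of the 2 drug exposures, each measured against the same parental cells, differed from each other at 4 genes by the direct test of resistant against colony cells (limma, adjusted p in the report). The log2 difference was -0.49 at ZEB2, 0.41 at ZEB1, 0.56 at CDH2 and 0.59 at SNAI1. At SNAI1 and CDH2 the colony libraries were the lowest of the 10, and at ZEB2 they were the highest. At SNAI1 colony 2 (4605 bp) lay only just below parental 2 (4615 bp). The shortest peak also differed between these groups (282 to 284 bp in colonies, 255 to 256 bp in resistant cells). With peaks shortened accordingly the differences were -0.54, 0.53, 0.68 and 0.54.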

How the results depend on the processing

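The number of genes called for colonies against parental cells, 2 in the report, became 1 with no centring, with no trend, with a fit of the 4 libraries only, and with 1 library left out it ran from 1 to 2. For resistant against parental cells it was 3, all wider. With no centring none of these passed, and the count was 1, VIM called narrower. The count was 2 with no trend and with a fit of the 4 libraries only. It rose to 4 when weaker peaks were dropped, with a pseudocount of 1000 bp and with shortened peaks, where SNAI2 passed. Leaving out a library gave 2 to 3 there. The count for resistant against colony cells (4) stayed within 4 to 5, and both transgene counts were 0 under all alternatives. Of 315 recomputed log2 changes in the drug comparisons 283 kept direction and side of the threshold, 16 lost the call, 12 gained one and 4 changed sign. The sign changes were SNAI1 in colonies against parental cells when weaker peaks (−log10 q under 10) were dropped (log2 change 0.0141), and with no centring VIM in resistant against parental (-0.14) and against colony cells (-0.11) and TWIST1 in resistant against colony cells (-0.11); none of these was called in the main setting. With a pseudocount of 1000 bp the count for colonies against parental cells was 3. The replicate block gave 3 genes for colonies against parental cells (CDH2 added, adjusted p = 0.0299) and 4 for resistant against parental cells (ZEB2 added, adjusted p = 0.0368). At ZEB2 replicate 1 had more bases under peaks than replicate 2 in each of the 5 groups. With the block its limma adjusted p for colonies against parental cells was 0.00282. Over the 12087 regions marked in all 10 libraries, replicate numbers showed little pairing of the libraries. The correlation of replicate differences between groups ran from -0.05 to 0.13, above 0.1 in 1 of 10 pairs. The cause of these changes was not tested. Lists without read counts leave differences below the peak threshold undetectable.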

Other observations

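Outside the 5 kb windows and the promoter regions, 5 further regions lay within 20 kb of the start sites. They are given as values with no test, since they were looked at after the values were seen. The longest lay upstream of VIM (chromosome 10, 17251321 to 17259497). It had 3194 and 4264 bp under peaks in parental, 2137 and 2135 bp in resistant, 4590 and 4275 bp in GFP and 4185 and 4419 bp in NRAS Q61K libraries, and 0 bp in both colony libraries. A region downstream of the CDH2 start (chromosome 18, 25747507 to 25748963) had 370 to 856 bp in the parental, GFP and NRAS Q61K libraries and 0 bp in the colony and resistant libraries. A region downstream of SNAI2 (chromosome 8, 49824370 to 49825095) had 190 to 422 bp in parental 1 and the GFP and NRAS Q61K libraries. It had 0 bp in parental 2 and in the colony and resistant libraries. The regions near ZEB2 (190 bp in NRAS Q61K 1) and SNAI1 (327 bp in NRAS Q61K 2) were each marked in 1 library.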
